A study of Mus musculus with 8 samples.

Results

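The granins and the membrane and accessory proteins of dense-core secretory granules were followed in whole small intestine from E18.5 mouse embryos, in controls and in embryos labelled as lacking Rfx6 in the endocrine lineage. The 10 genes, of 36161 gene names on the array, were Chga, Chgb, Scg2, Scg3, Scg5, Vgf, Pcsk1n, Resp18, Ptprn and Ptprn2. They were read by all non-control probes of the array whose gene name in the files is one of these symbols, which gave 12 probes of the 55681 distinct probes on the array. Ptprn2 had 3 probes and every other gene had 1. This rule uses no measured value.

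The series held 8 single-colour Agilent arrays, 4 per group, each from 100 ng of total RNA of embryonic small intestine. Control replicates 1, 3 and 4 carried 1 floxed Rfx6 allele (fl/+), and control replicate 2 carried 2 (fl/fl). All 4 mutants were Rfx6 fl/fl with Ngn3-cre, a Cre recombinase driven by the gene of endocrine progenitors Neurog3 (Ngn3), so a floxed Rfx6 allele was common to every embryo and Cre was named for the mutants only. Effects of Cre and of the deletion therefore cannot be told apart here. The labels give each array a number of its own, read here as 1 animal per array. RNA of whole intestine also holds that of enteric neurons, which carry granins too.

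Granins are acidic proteins that aggregate in the trans-Golgi network with prohormones and calcium and enter the dense-core granules of endocrine cells and neurons. Enzymes inside the granule cut several of them into small peptides, and inhibitor-like members such as Pcsk1n and chaperones such as Scg5 act on those enzymes. Chromogranin A is widely used as a marker of enteroendocrine cells, the hormone-secreting cells of the gut epithelium. Ptprn and Ptprn2 span the granule membrane and are known as autoantigens of type 1 diabetes.

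The short sequences behind the readout are shown because they say which transcript stretch each value stands for. The probes of Scg2 and Vgf carry AATAAA, the letters of the polyadenylation signal, in capitals, within their last 30 bases.
Scg2 probe: gtggagttctggagcaaaaccAATAAAgca
Vgf probe: tagttttgctaagaAATAAAagtgactatt
The motif, searched as these letters on the probe strand, was in 3 of the 12 member probes (Scg2, Scg5 and Vgf) and in 5602 of all 55681 probes. The Scg2 probe lay on the minus strand at chr1:79431323-79431382 (mm9), the build of the array annotation. The Ptprn2 probes that start at transcript positions 3254 and 3269 share 45 of their 60 bases, so they are not independent readings, and each has 15 bases of its own.
Ptprn2 probe at 3254: cacagtcagtgcagg
Ptprn2 probe at 3269: gaaacacccagttag

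The promoters of Scg2, Chgb and Chga, printed as the 100 bases before the RefSeq start (GRCm38.p6, gene strand), are shown because these granins share a known cyclic AMP response element, whereas their values below differed. The element TGACGTCA, or its shorter form TGACG, is in capitals.
Scg2, chr1:79440027-79440126, minus strand: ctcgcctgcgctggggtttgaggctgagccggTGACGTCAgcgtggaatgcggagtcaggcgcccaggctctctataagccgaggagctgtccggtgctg
Chgb, chr2:132781542-132781641, plus strand: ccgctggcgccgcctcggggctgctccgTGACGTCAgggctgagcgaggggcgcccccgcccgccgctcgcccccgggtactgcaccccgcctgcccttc
Chga, chr12:102554841-102554940, plus strand: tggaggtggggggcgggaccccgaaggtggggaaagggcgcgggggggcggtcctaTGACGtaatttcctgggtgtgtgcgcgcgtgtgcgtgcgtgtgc
Of the 9 members with a promoter in the RefSeq table, 2 (Scg2 at -68 and Chgb at -72 from the start) held TGACGTCA in the 250 bases before the start, as did 1.55% of all 32851 promoters. TGACG or its complement CGTCA, which also lies inside the full element, was in 6 members and in 17.8% of promoters. GTTGCC or its complement GGCAAC, letters of the binding site of RFX factors, was in 2 members, Ptprn at -39 and Pcsk1n at -158, and in 10.4% of promoters. A match is a description of letters and not a measured site.

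The arrays had a 75th percentile of 788 to 1027 intensity units. By the scanner software's flag for signal well above background, 59.7% to 69.9% of their probes qualified. Mutant replicate 1 stood apart: it correlated with the others at 0.975 on average, and the rest at 0.989 to 0.990. The Rfx6 probe stood at -3.32, -3.20, -3.48 and -2.93 in controls and at -5.52, -3.37, -3.02 and -3.02 in mutant replicates 1 to 4. Its difference was -0.50 (SE 0.52, limma adjusted p = 0.828). The groups overlapped on this probe, and the labels do not say which exons were floxed, so it does not check the labels. The 8 epithelial markers, Fabp2 and Cdx2 among them, were at a summed log2 level of 10.3 to 10.4 in controls and 10.2 to 10.6 in mutants. The defining markers of the labelled tissue were therefore present, and none of the 8 was called by limma or at an unadjusted p under 0.05. All values are log2 processed intensity minus the log2 of the 75th percentile of the same array, so a value of 0 is as bright as that percentile, and levels of different probes are not ranked against each other.

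**Figure D1:**
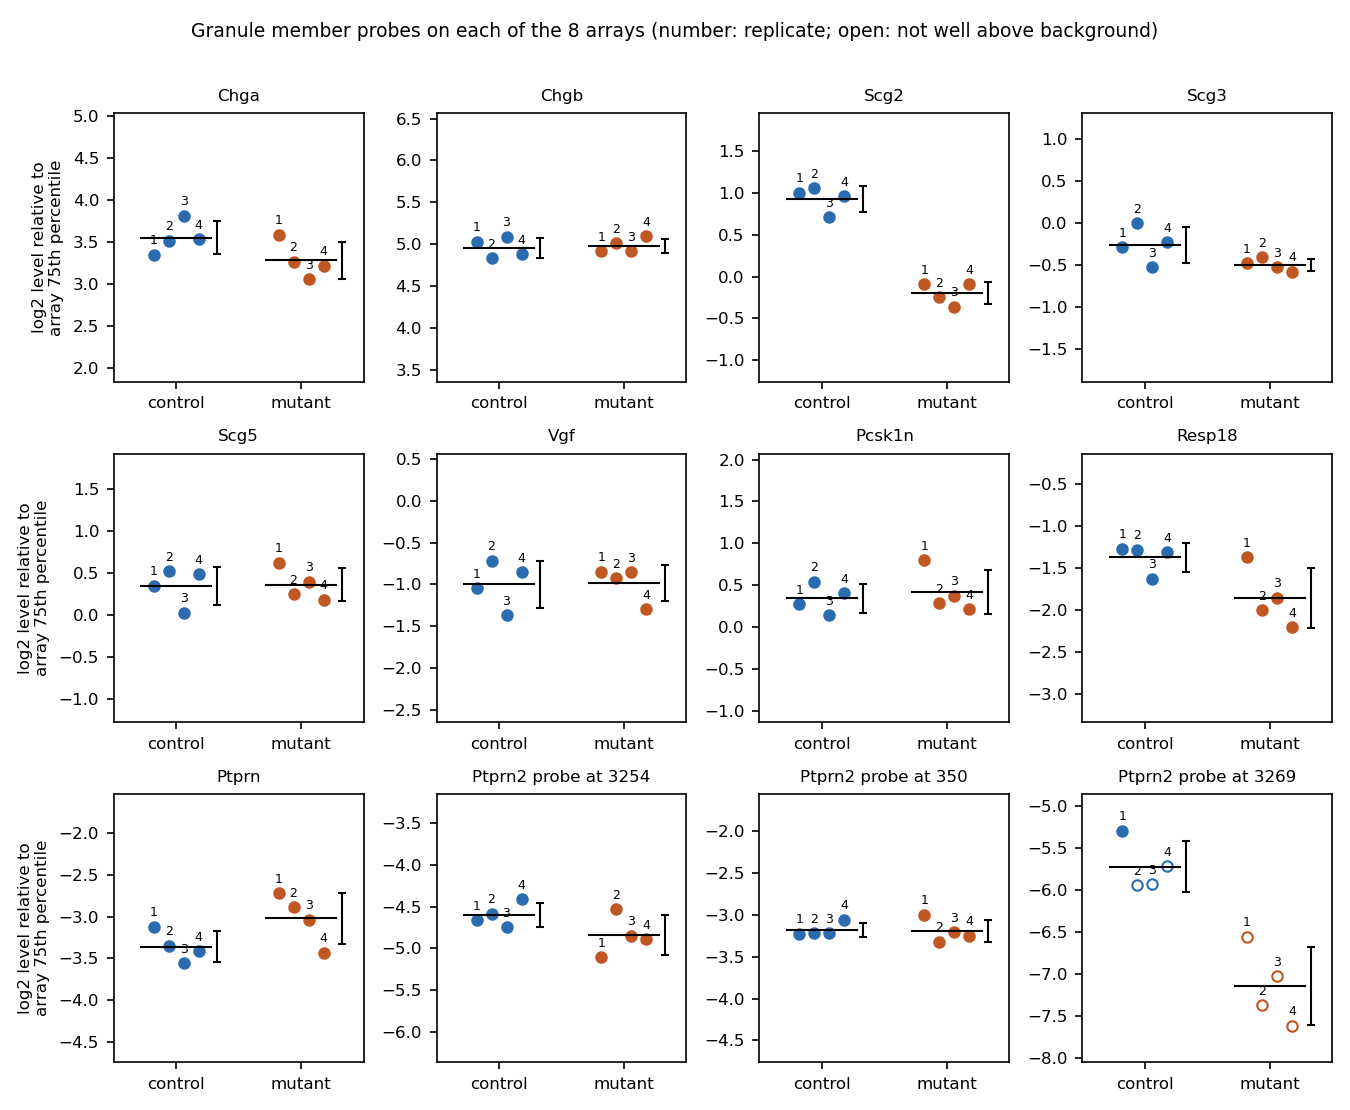
Level of the 12 member probes as log2 intensity minus the array's own 75th percentile (y axis, a span of the same size in every panel) in 4 control (blue) and 4 mutant (orange) arrays, with the replicate number over each point, the group mean as a line and the SD as a bar; open points were not well above background. Scg2 is the one tested member whose groups are apart, at 0.71 to 1.05 in controls and -0.36 to -0.09 in mutants.

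Of the granule members, only Scg2 was called lower in the mutants. The granins Chga, Chgb, Scg3, Scg5 and Vgf, the processing-related Pcsk1n, the secretory protein Resp18 and the membrane proteins Ptprn and Ptprn2 did not pass the test. Scg2 was 2.19-fold lower. The other tested probes differed by -0.49 to 0.34 on the log2 scale. Of the 12 member probes, 11 from all 10 genes were bright enough to be tested: 1 was called, 6 were below 0 and 5 above, with a median difference of -0.013 against 0.024 over all 35471 tested probes. In that fit (limma, Benjamini-Hochberg adjustment, threshold 0.05) 14 probes were called lower, 0.0395% of those tested, and 15 in either direction, 0.0423%. At an unadjusted p under 0.05 there were 2 of the 11 member probes, Scg2 and Resp18, and 1790 of all tested probes, 5.05%, the share against which the unadjusted counts below are to be read. The RNA was from whole intestine, so fewer cells of a type and less RNA per cell cannot be told apart in any of these values.

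Scg2 encodes secretogranin II, the precursor of the peptide secretoneurin. Its level was 1.00, 1.05, 0.71 and 0.96 in control replicates 1 to 4 and -0.09, -0.25, -0.36 and -0.09 in mutant replicates 1 to 4. In processed intensity these were 1932, 2124, 1633 and 1868 units in controls and 738, 739, 763 and 962 units in mutants. Every mutant array was below every control array. Groups apart in this direction occurred in 1 of the 11 tested member probes and in 1.56% of all tested probes. The reverse order, with every mutant above every control, occurred in no member probe and in 2.81% of all tested probes.

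The 4 controls averaged 0.93 ± 0.15 for Scg2 and the 4 mutants -0.20 ± 0.13 (mean ± SD). Mutants thus differed by -1.13 (SE 0.11, 95% interval -1.38 to -0.87), with a limma adjusted p of 0.0171, and the probe ranked 11 of 35471 by p. Within the slide, the difference was -1.20 in row 1 and -1.06 in row 2, each with 2 arrays per group. The size held with any single array left out, at -1.20 to -1.07, but the call did not. Without mutant replicate 1, the array that stood apart, the difference was -1.16 (limma adjusted p = 0.0246). The limma adjusted p rose to 0.105 without control replicate 1, 0.118 without control replicate 2, 0.121 without control replicate 4, 0.101 without mutant replicate 2 and 0.0824 without mutant replicate 3, in a range of 0.00246 to 0.8287 over 20 alternatives.

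**Figure D2:**
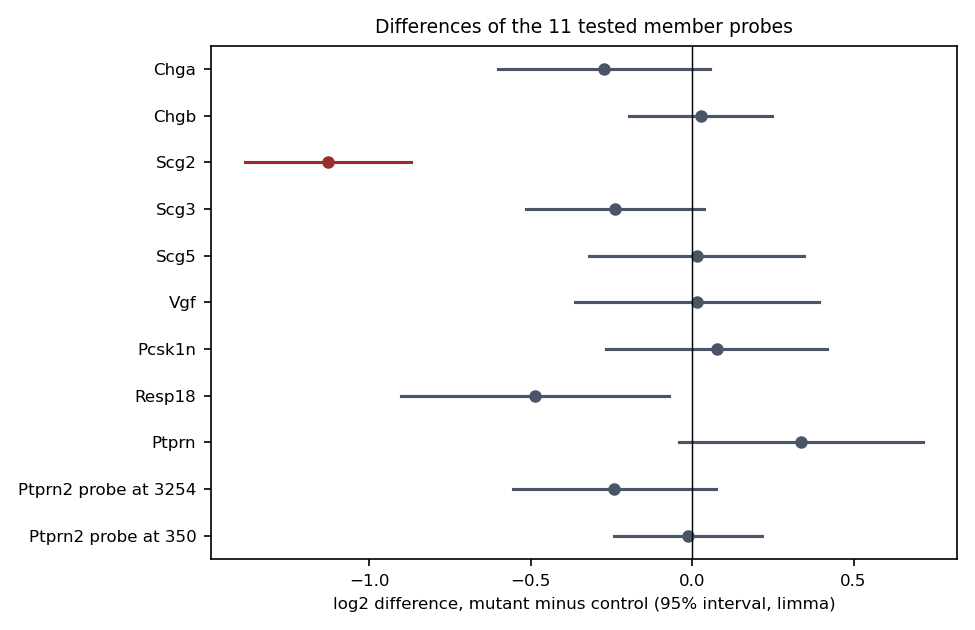
Difference in log2 level, mutant minus control (x axis), with its 95% interval from limma for the 11 tested member probes (rows), where n = 4 arrays per group and red marks an adjusted p under 0.05. The interval of Scg2, -1.38 to -0.87, is the one that lies wholly below every other member's point estimate, while 9 of the other 10 intervals include 0.

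The change of Scg2 was also compared with that of the other members within each array, as the log2 ratio of Scg2 to each of the 10 other tested member probes, where scaling between arrays cancels. Against the other granins the ratio fell by 0.86 for Chga, 1.15 for Chgb, 0.89 for Scg3, 1.14 for Scg5 and 1.14 for Vgf. Against Pcsk1n it fell by 1.20, against Resp18 by 0.64 and against Ptprn by 1.47. Against Ptprn2 it fell by 0.89 for the probe at 3254 and by 1.11 for the probe at 350. In each of these 10 comparisons the 4 mutant ratios lay below the 4 control ratios, with a two-sided exact permutation p of 0.0286, the smallest that 70 splits allow (adjusted over 10 pairs it is the same). All of them share the Scg2 values, and Scg2 was taken for the ratios because it had been called, so they are not independent evidence of its difference.

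Chga, chromogranin A, is the granin used most as an endocrine marker. Its level was 3.35, 3.52, 3.82 and 3.54 in control replicates 1 to 4 and 3.59, 3.27, 3.06 and 3.22 in mutant replicates 1 to 4. Mutant replicate 1 lay above 3 of the 4 controls, and the other 3 mutants lay below all controls. The means of 3.56 ± 0.19 and 3.28 ± 0.22 (SD, n = 4 each) differed by -0.27 (SE 0.14, 95% interval -0.60 to 0.06, limma adjusted p = 0.828). The difference was -0.0062 in slide row 1, which holds mutant replicate 1, and -0.54 in row 2. Without mutant replicate 1 it was -0.37 (limma adjusted p = 0.70, range 0.429 to 0.994 over 20 alternatives).

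Chgb, chromogranin B, is printed 10 times on the array, and the SD between its spots was 0.034 to 0.056 within an array. It read 5.03, 4.83, 5.09 and 4.88 in controls and 4.92, 5.01, 4.91 and 5.09 in mutants. The groups overlapped throughout. The difference was 0.026 (SE 0.097, 95% interval -0.20 to 0.25, limma adjusted p = 0.951), an interval that does not reach the size of the Scg2 difference.

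Scg3, secretogranin III, binds chromogranin A and cholesterol-rich membrane during granule formation. It read -0.28, 0.00, -0.52 and -0.23 in controls and -0.48, -0.40, -0.53 and -0.58 in mutants. The difference of -0.24 (SE 0.12, 95% interval -0.51 to 0.04, limma adjusted p = 0.828) rested on 3 control arrays, since control replicate 3 lay within the mutant values, and it was -0.15 without control replicate 2. Scg5 encodes 7B2, the chaperone of the prohormone convertase Pcsk2. It read 0.35, 0.52, 0.03 and 0.49 in controls and 0.62, 0.25, 0.40 and 0.18 in mutants, with the lowest and the highest array in different groups. The difference was 0.015 (SE 0.15, 95% interval -0.32 to 0.35, limma adjusted p = 0.982).

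Vgf, a granin first found as a gene induced by nerve growth factor, gives rise to several neuropeptides. It read -1.05, -0.72, -1.36 and -0.86 in controls and -0.85, -0.93, -0.85 and -1.30 in mutants. One array in each group, control replicate 3 and mutant replicate 4, was low. The difference was 0.015 (SE 0.17, 95% interval -0.36 to 0.39, limma adjusted p = 0.984).

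Pcsk1n encodes proSAAS, which inhibits the convertase Pcsk1. It read 0.28, 0.54, 0.14 and 0.41 in controls and 0.80, 0.29, 0.38 and 0.22 in mutants, and mutant replicate 1 was the highest of all 8 arrays. The difference was 0.076 (SE 0.15, 95% interval -0.27 to 0.42, limma adjusted p = 0.904). Resp18 encodes an endocrine secretory protein related in sequence to the luminal part of Ptprn. Its level was -1.26, -1.28, -1.63 and -1.31 in controls and -1.37, -1.999, -1.85 and -2.20 in mutants.

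Resp18 in mutant replicates 2, 3 and 4 lay below every control, and mutant replicate 1 lay among the controls. The means of -1.37 ± 0.17 and -1.85 ± 0.36 (SD, n = 4 each) differed by -0.49 (SE 0.18, 95% interval -0.90 to -0.07), with an unadjusted p of 0.0269 and a limma adjusted p of 0.828. The difference was -0.41 in slide row 1 and -0.56 in row 2. Without mutant replicate 1 it was -0.65 (limma adjusted p = 0.300), and over 20 alternatives the adjusted p was 0.141 to 0.9998, so Resp18 passed in none of them.

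Ptprn (IA-2) and Ptprn2 (phogrin) have a phosphatase-like domain on the cytosolic face of the granule. Ptprn read -3.12, -3.35, -3.56 and -3.41 in controls and -2.72, -2.89, -3.04 and -3.43 in mutants. Mutant replicates 1 to 3 were above all controls and mutant replicate 4 was not. The difference was 0.34 (SE 0.17, 95% interval -0.04 to 0.72, limma adjusted p = 0.828), the one member difference above 0.1 in the positive direction. Without mutant replicate 1 it was 0.24.

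The 3 Ptprn2 probes lie at chr12:118515207-118515266 (transcript position 3254), chr12:117960601-117960660 (position 350) and chr12:118515222-118515281 (position 3269), all mm9 and plus strand. The probe at 3254 read -4.67, -4.58, -4.75 and -4.41 in controls and -5.10, -4.53, -4.85 and -4.89 in mutants. The difference there was -0.24 (SE 0.14, 95% interval -0.56 to 0.07, limma adjusted p = 0.828). The probe at 350 read -3.23, -3.22, -3.22 and -3.06 in controls and -3.00, -3.32, -3.21 and -3.25 in mutants. This amounts to -0.013 (SE 0.10, 95% interval -0.24 to 0.22, limma adjusted p = 0.978). The groups overlapped on both. For the probe at 3254 the difference shrank to -0.15 without mutant replicate 1 or with array weights, to -0.082 with the deposited table and to -0.027 with normexp background correction. The probe at 3269 was well above background on 1 control array and no mutant array, and it was not tested. Its levels of -5.94 to -5.29 in controls and -7.62 to -6.55 in mutants did not overlap, but no fold is given for a signal not well above background.

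The peptide hormones that travel in the same granules were set beside these members. Of the 10 genes of peptide cargo, 8 were called lower and none higher, with a median difference of -2.96. Gip, the incretin of K cells, was lower at least 210-fold in the main fit, a bound because 1 of 4 mutant arrays had it well above background. Its log2 difference was -8.02 there, -5.58 with normexp background correction and -5.61 with the deposited table. The bound therefore holds for the main processing only. Ghrl (ghrelin) differed by -4.86, Sst (somatostatin) by -4.52, Nts (neurotensin) by -3.98, Gcg (proglucagon) by -3.42, Cck by -2.49, Pyy by -1.58 and Sct (secretin) by -0.997, with limma adjusted p from 6.25e-06 to 0.0477. The difference of Scg2 lay between those of Pyy and Sct. Gast (-0.04) was not called. Tac1 (0.54, SE 0.11), the precursor of substance P, was above every control in every mutant without passing the test (limma adjusted p = 0.378). At an unadjusted p under 0.05 there were 9 of the 10, 8 lower and Tac1 higher. The count of 8 called lower was 7 or 8 with any single array left out, 6 with the replicate number as a block, and 4 and 2 within slide rows 1 and 2. The summed log2 level of the cargo list was 7.10 to 7.22 in controls and 5.55 to 5.96 in mutants. The summed level of the 11 tested member probes was 5.56 to 5.74 in controls and 5.45 to 5.60 in mutants, with overlap. Such a sum adds linear intensities, so the probes with the most signal set most of it. For the members these were Chgb and Chga (control means 4.96 and 3.56), and the sum says little about the others.

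**Figure D3:**
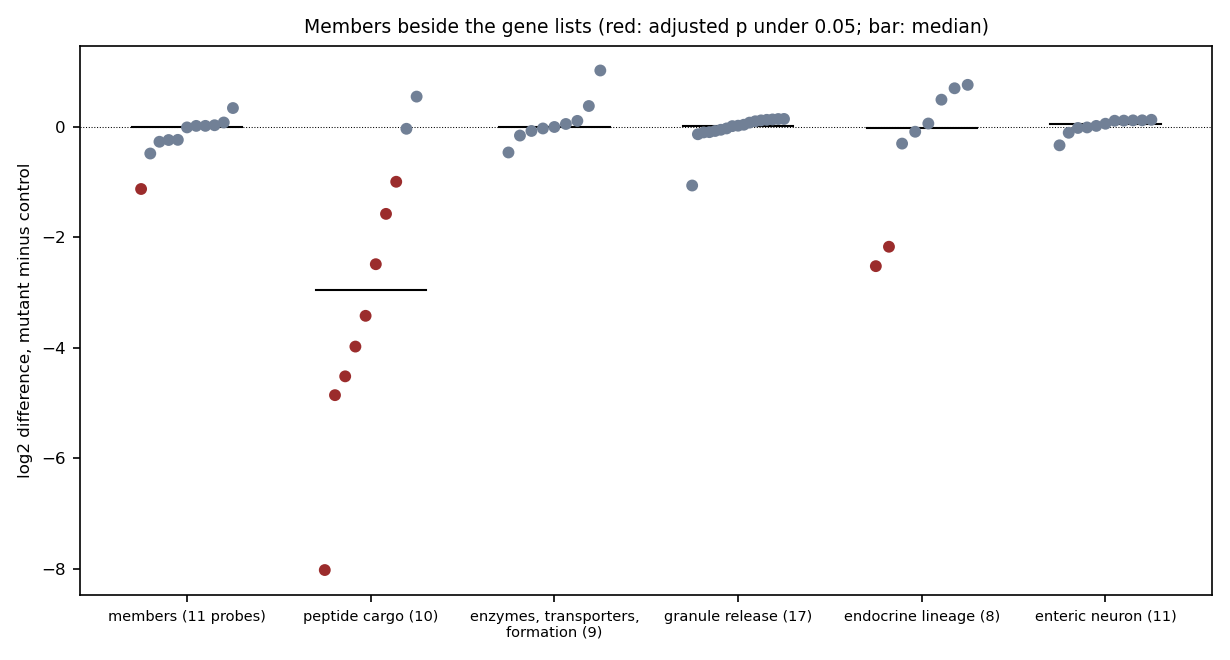
Difference in log2 level, mutant minus control (y axis), for each tested gene of 5 lists and for the 11 tested member probes (columns, points in order of value), with the median as a bar and an adjusted p under 0.05 in red. Members centre on -0.013 with Scg2 below the rest, peptide cargo has a median of -2.96, and points of genes near background (such as Gip and Isl1) are measured differences, for which the text gives bounds.

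Of 9 genes for granule enzymes, transporters and granule formation, none was called by limma (2 at an unadjusted p under 0.05, Hid1 and Pam), and the median difference was -0.0054 (-0.051 to 0.058 with 1 array left out). The convertases Pcsk1 and Pcsk2 differed by 0.11 (SE 0.12) and -0.077 (SE 0.12), and Cpe, the carboxypeptidase that trims prohormones, by -0.0054 (SE 0.19). Hid1, a granule formation factor, was higher in every mutant than in every control (0.37, SE 0.12, limma adjusted p = 0.828), and Pam, the peptide-amidating enzyme, had a difference of 1.02 (SE 0.32, limma adjusted p = 0.828) with overlapping groups. Without mutant replicate 4, Pam was called (1.37, limma adjusted p = 0.024). Hid1 and Pam were singled out after their values were seen. Of 17 genes of granule release, none was called by limma (1 at an unadjusted p under 0.05, Scgn), with a median of 0.018. Cadps, which primes granules for release, differed by 0.018 (SE 0.16) and Snap25, a SNARE protein, by -0.14 (SE 0.13). Scgn, a calcium-binding protein of endocrine cells, was at least 2.09-fold lower in its group means (well above background on 3 of 4 mutant arrays), with groups apart and a limma adjusted p of 0.322. With array weights Scgn was called (-1.27, limma adjusted p = 0.0357). The list's median turned to -0.017 without control replicate 3 and to -0.010 without mutant replicate 1.

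Endocrine lineage factors did not move one way. Isl1, a factor of endocrine differentiation, was called lower, by at least 3.15-fold in the main fit. It was well above background on 4 control arrays and no mutant array, so it entered the test through the controls alone. Its difference was -2.52 in the main fit, -0.63 with normexp background correction and -0.70 with the deposited table, so the bound holds for the main processing only. Isl1 was not called with the replicate number as a block or within either slide row. Neurog3, the progenitor factor, and Pax4 were above every control in every mutant, by 0.76 and 0.70, without passing the test (limma adjusted p = 0.0861 and 0.415, and Neurog3 was called higher with normexp, the deposited table and array weights). The list's summed level was 1.36 to 1.65 in controls and 1.65 to 2.05 in mutants.

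By pattern over the 8 arrays, taken as deviations from the control mean, the 5 genes nearest to Scg2 among 20048 probes with a plain symbol were Sct, Scgn, Trpa1, Spink8 and Cdc73. The root mean square difference from Scg2 was 0.150 for Sct, 0.197 for Scgn, 0.205 for Trpa1, 0.238 for Spink8 and 0.256 for Cdc73 on the log2 scale. Sct, the nearest, read 6.39, 6.46, 6.34 and 6.47 in controls and 5.64, 5.52, 5.17 and 5.35 in mutants, with mutant replicate 3 lowest, as for Scg2. Trpa1, an irritant-sensing ion channel, differed by -1.07 (limma adjusted p = 0.0491), Spink8 by -0.94 (0.102) and Cdc73 by -1.16 (0.0885). The 5 genes were picked for values like those of Scg2, its mutant difference included. Their differences, p-values and order of arrays are therefore no independent evidence of a shared change. The granule members were left out of this search, so it does not say whether another member followed Scg2.

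Within a group, several members were high or low on the same array. Control replicate 3 was the lowest control for 8 of the 11 tested member probes (median deviation from the group mean -0.20), and the highest for Chga and Chgb. Mutant replicate 1 was the highest mutant for 7 of the 11 (median deviation 0.19), and mutant replicate 4 the lowest for 6. These deviations are smaller than the Scg2 difference of -1.13, but of the size of the other members' differences.

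Markers of enteric neurons followed a like order of arrays. Control replicate 3 was the lowest control for 11 of the 11 tested neuron markers (median deviation -0.53), with Stmn2 and Elavl4 among them, and mutant replicate 1 the highest mutant for 9 of 11 (median deviation 0.29). Mutant replicate 4, low for the members, was the lowest for 3 of 11. Between the groups none of the 11 was called by limma, nor at an unadjusted p under 0.05, with a median of 0.054 and a summed level of 3.61 to 4.37 in controls and 4.03 to 4.38 in mutants. The direction depended on single arrays, and with 1 left out the median ran from -0.081 to 0.18. Without control replicate 3, which gave the low end, all 11 neuron markers were lower in the mutants. The high end came without control replicate 2, and the median was -0.026 without mutant replicate 1 and -0.084 with array weights. The part of neuronal RNA in the members' values was not tested. The 6 enteric glia markers were at 1.49 to 1.82 in controls and 1.33 to 1.58 in mutants, and the 3 adrenal medulla markers at -0.82 to -0.69 and -0.99 to -0.69, with no limma call in either list (1 glial and 0 adrenal markers at an unadjusted p under 0.05). The order of arrays was not particular to neurons. Control replicate 3 was the lowest control for 5 of 6 glia, 3 of 10 cargo, 1 of 8 lineage and 0 of 5 pancreatic acinar genes. Mutant replicate 1 was the highest mutant for 3, 5, 5 and 0 of these.

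**Figure D4:**
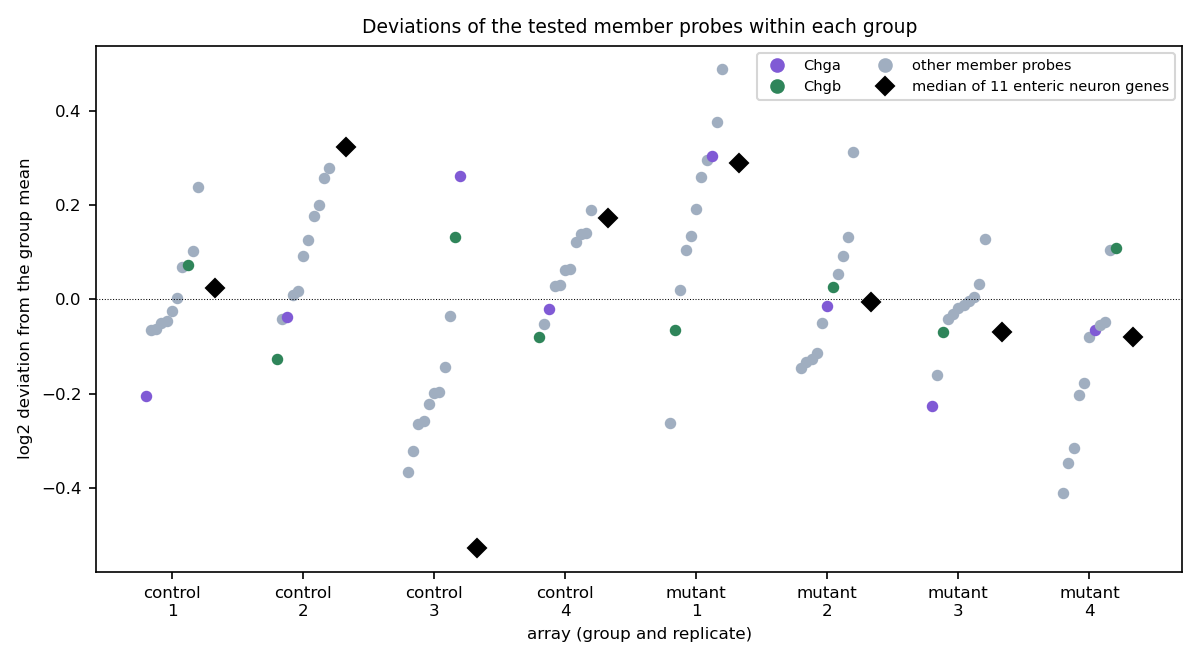
Deviation of each tested member probe from the mean of its group on the log2 scale (y axis) for the 8 arrays (x axis), with Chga in purple, Chgb in green, the other members in grey and the median of the 11 enteric neuron genes as a black diamond. In control replicate 3 the grey points lie below 0 and the neuron median is at -0.53, while Chga and Chgb lie above 0; in mutant replicate 1 most points lie above 0 with the neuron median at 0.29.

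Pancreatic acinar markers differed between the groups beside the members. All 5 tested of 6 were higher in the mutants, with a summed level of -0.30 to 1.01 in controls and 1.36 to 3.74 in mutants. None was called by limma and all 5 had an unadjusted p under 0.05. Cela2a was well above background on 4 mutant and 0 control arrays, so it entered the test through the mutants alone. The untested Pnlip, well above background on 1 array per group, differed by -0.10. Among probes well above background on all 8 arrays, 3 acinar markers remained, all higher, at a median of 1.20. With the slide row as a block 2 were called higher, Amy2a5 and Cela2a; Amy2a5 was also called with normexp and Cela2a without mutant replicate 4. Amy2a5 was at least 62.8-fold higher in the group means of the main fit (well above background on 3 of 4 control arrays, limma adjusted p = 0.196). Its difference was 6.09 there and 4.48 with normexp, so this bound too holds for the main processing only. The 6 islet markers had a summed level of 1.99 to 2.11 in controls and 1.87 to 2.20 in mutants, with no limma call and 2 markers lower at an unadjusted p under 0.05 (1, Iapp, was called with normexp). The 5 smooth muscle markers were all above 0, at a median of 0.21, and none was called or had an unadjusted p under 0.05. That median was 0.054 without control replicate 3, 0.14 without mutant replicate 1 and 0.093 with array weights. The part of pancreatic RNA in the members' values was not tested.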

How the data were processed

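The members and gene lists were chosen with earlier results of these data known. Per the file headers, the authors scanned 1 slide of array design 028005 (annotated on mm9) with Agilent Feature Extraction 10.10.1.1 and deposited linear spot intensity values, background-corrected within each array and not normalised between arrays. A second deposited file tabulates linear intensity by spot, with processing not given in the sources used here; it served as an alternative.

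Each array's log2 processed intensity was centred on its 75th percentile over 59305 non-control spots. Spots flagged as outliers (117 to 157 per array) were left out, no non-control spot was saturated, and spots of a probe were averaged. A probe was tested when at least 50% of its spots were well above background on at least 4 of 8 arrays, counted without regard to group, which gave 35471 probes. The 2 groups entered limma 3.58.1 (lmFit and eBayes, two-sided, without covariates, in R 4.3.3), with p-values adjusted by Benjamini-Hochberg over all tested probes at 0.05. The fit was tested on simulated data. Array number limits the precision.

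A fold written "at least" sets the bright group's mean against the dim group's mean of, per array, its own value or, if higher, that of the dimmest probe still well above background. It covers the group means under the main processing only. Lists used the brightest tested probe of each gene. Genes named were all members, Rfx6, called list genes with up to 3 others per list, and the 5 probes most like Scg2; some list genes are not reported here. The descriptions of mutant replicates 2 to 4 name other Rfx genes than their titles and were not used. Sequences are from the array files and RefSeq (GRCm38.p6), which held promoters for 9 of the 10 genes. Alternatives covered background correction, scaling, the filter, 1 probe per gene name, array weights, the slide row, a replicate block and leaving out each array. No mm9 gene models were used here.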

Additional observations from a re-analysis of the deposited data

Results flagged for a closer look

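In 36 groups of 4 arrays examined, the tested and untested member probes among them, 3 held an array whose gap to the nearest other array was too large a part of the group's range by Dixon's 95% criterion; chance gives about 1 in 20, or 1.8 of 36. Resp18 was lowest in control replicate 3, at -1.63 against -1.31 to -1.26 in the other controls. The Ptprn2 probe at 350 was highest in control replicate 4, at -3.06 against -3.23 to -3.22. Rfx6 was lowest in mutant replicate 1, at -5.52 against -3.37 to -3.02 in the other mutants, and not well above background there.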

How the results depend on the processing

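The difference of Scg2 stayed negative in all 20 alternatives run (-1.20 to -1.05) and passed the threshold in 11. Its limma adjusted p was 0.0656 without a filter on dim probes, 0.200 with the replicate number as a block, and 0.817 and 0.8287 within slide rows 1 and 2, so that 0 member probes were called in each of these 4, and 0 to 1 with 1 array left out. Over all probes, 15 calls became 24 with normexp background correction, 39 with array weights, 7 with the replicate block, 5 and 4 within slide rows 1 and 2, and 9 to 20 with 1 array left out. Within a row, or with 1 array left out, fewer samples enter the fit; for the other settings the cause was not tested. Same-numbered arrays of the 2 groups did not deviate together (correlations -0.087 to 0.098, 1 of 4 best with its own number), so the numbers were not used as pairs; blocking on them changed no other member's call. Chga, Scg3, Resp18 and Ptprn kept their direction in all 20 alternatives and the Ptprn2 probe at 3254 in all 19 it could enter (-0.35 to -0.027), and none of these passed the test in any. Differences near 0 changed sign. The Ptprn2 probe at 350 was at 0.033 with normexp, 0.0026 with quantile normalization, 0.0025 with median scaling, 9.97e-05 with the deposited table, 0.063 within row 1 and -0.077 to 0.029 with 1 array left out. Chgb was at -0.027 with quantile normalization, -0.022 with the deposited table and -0.016 to 0.070 with 1 array left out. With array weights Scg5 was at -0.10, Vgf at -0.038 and Pcsk1n at -0.064; within row 1 Scg5 was at -0.0027 and Vgf at -0.0057. With 1 array left out Scg5 ranged from -0.092 to 0.074, Vgf from -0.11 to 0.12 and Pcsk1n from -0.050 to 0.14.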
